A study of Homo sapiens with 39 samples.

Results

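EGFR and 5 ligands that bind it (AREG, EREG, HBEGF, TGFA and BTC) were followed after irradiation of U87-MG, a long-established line of human glioblastoma cells. The members were taken by gene symbol: of 6 genes named, 5 had a probe on the Illumina HumanHT-12 v4 bead array under that symbol, out of 20041 genes that the probes name, and each of the 5 exceeded background throughout 1 or more groups. No probe is paired with AREG in the annotation used, and AREG was not analysed here. Cultures received a single dose of 8Gy or 16Gy of gamma radiation from a cesium-137 source, or were sham irradiated in parallel (0Gy), and RNA was taken on days 1, 4 and 6, with 3 samples per dose and day, and at about day 35, with 4 samples per dose. The 12 groups hold 39 samples. All come from 1 cell line, and the day 35 cells had been replated every few days. For the long-term cultures 3 independent replicates are described, and how the 4 samples per dose relate to them is not given in the sources used here. Whether a change of signal came from more RNA per cell or from another mix of cells within a culture cannot be told apart in RNA of a whole culture.

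EGFR is a receptor tyrosine kinase that is often amplified or mutated in glioblastoma. Its ligands are made as proteins anchored in the cell membrane, and metalloproteases of the ADAM family cut them free to act on the same cell or on its neighbours. Bound receptor signals through RAS and the ERK kinases, PI3K and STAT3, and ERK in turn induces genes of its own inhibitors and several of the ligands. The 5 ligands share the EGF-like fold, and HBEGF and AREG also bind heparin.

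Values are log2 signals after the normalization by the authors, so a difference of 1 is a change of 2-fold. A gene was called changed where limma gave an adjusted p (Benjamini-Hochberg, 11421 genes tested) under 0.10 and the fold change exceeded 1.5, which is 0.585 on the log2 scale. Background, taken from 437 probes of olfactory receptor genes, lay between 6.77 and 6.885 in the 39 samples, and 16833 to 20884 probes a sample were above it. Of the markers of the line, VIM, NES, CD44, S100A6 and OLIG2 were above background in 39 of 39 samples, SOX2 in 3, and GFAP, the filament protein of astrocytes, in 0. Of 11 markers of blood, endothelial and epithelial cells, PTPRC, CDH5, KRT5, KRT14 and CDH1 were above background in 0 of 39 samples, CD14 in 38, EPCAM in 23 and the others in 1 to 10.

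HBEGF, EREG and TGFA were higher in irradiated cells, on different days, and all members that were called were higher. On day 1 the call was TGFA at 16Gy, on day 4 HBEGF and EREG at both doses and TGFA at 16Gy, and on day 6 all 3 ligands at both doses. EGFR and BTC were called by limma on none of the 4 days. By day 35 no member was called at either dose.

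At 16Gy, 1 of 5 members was called on day 1, where 1.21% of all genes tested were called, 3 of 5 on day 4 (4.61% of all genes) and 3 of 5 on day 6 (7.78% of all genes). At 8Gy, 0 of 5 members were called by limma on day 1 (0.131% of all genes), with 2 of the 5 at an unadjusted p under 0.05, then 2 of 5 on day 4 (1.77% of all genes) and 3 of 5 on day 6 (3.2% of all genes). The median log2 difference of the 5 members was 0.20, 0.83 and 0.99 at 16Gy on days 1, 4 and 6, and 0.18, 0.50 and 0.61 at 8Gy, while the median over all genes tested lay between -0.03 and 0.01 in these 6 comparisons.

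The calls depend on the test and on how strictly it is corrected for the number of genes. An analysis of variance over all 12 groups was run here on 20041 genes, with the Bonferroni-Holm correction that the methods name. The study ran its own on a larger set of genes. The analysis run here gives 1 p-value per gene, for any difference among the 12 groups. A dose and day entered a call only through the fold change of its mean from 0Gy, so no p-value tests that comparison itself. In this way HBEGF was called as the 1 member of 5 at each dose on days 4 and 6. That was against 0.719% of all genes at 8Gy and 1.22% at 16Gy on day 4, and 0.923% and 1.64% on day 6. EREG and TGFA were called in none of these comparisons under Bonferroni-Holm. At 16Gy on day 1 limma called TGFA (adjusted p = 0.0089), the 1 of 5 members at an unadjusted p under 0.05. The analysis of variance under Bonferroni-Holm called 0 of 5 members there, against 0.319% of all genes. With Benjamini-Hochberg adjustment the same analysis kept every limma call of a member against 0Gy. Its adjusted p was 4e-07 for HBEGF, 9.2e-05 for EREG and 0.015 for TGFA. The shares of all genes called were then 0.704% at 16Gy on day 1, 1.14% at 8Gy and 2.51% at 16Gy on day 4, and 1.78% and 4.04% on day 6. TGFA was also called at 8Gy on day 1, 1 of 5 members against 0.309% of all genes. The analysis of variance sets groups of days 1 to 6 and of day 35 in 1 test although they were normalized apart.

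The start regions of the 3 ligands that were called are shown because these genes were called together on day 6. They are the 250 bases before the RefSeq start of transcription in GRCh38.p14, 5′ to 3′ on the strand of the gene, at chr5:140346604-140346853 (minus strand) for HBEGF, chr4:74364895-74365144 (plus strand) for EREG and chr2:70553827-70554076 (minus strand) for TGFA, and capitals mark TATAAA (the TATA box) and GGGCGG (the GC box) on either strand:
HBEGF: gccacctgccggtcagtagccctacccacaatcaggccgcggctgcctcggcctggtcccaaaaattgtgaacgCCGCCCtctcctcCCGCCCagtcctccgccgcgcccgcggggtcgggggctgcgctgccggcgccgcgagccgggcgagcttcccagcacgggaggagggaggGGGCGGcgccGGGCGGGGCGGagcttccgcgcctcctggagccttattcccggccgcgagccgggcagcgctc
EREG: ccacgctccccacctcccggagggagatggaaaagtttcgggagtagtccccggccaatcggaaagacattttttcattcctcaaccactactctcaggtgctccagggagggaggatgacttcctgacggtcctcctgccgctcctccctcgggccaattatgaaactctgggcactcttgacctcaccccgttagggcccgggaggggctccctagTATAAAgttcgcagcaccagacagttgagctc
TGFA: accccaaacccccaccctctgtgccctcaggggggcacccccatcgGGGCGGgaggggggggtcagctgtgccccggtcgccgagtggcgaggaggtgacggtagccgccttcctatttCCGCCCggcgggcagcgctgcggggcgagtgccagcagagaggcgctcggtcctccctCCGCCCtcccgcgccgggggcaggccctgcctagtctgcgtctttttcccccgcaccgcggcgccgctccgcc
EREG has TATAAA once, with its first base at position -32 from the start, and no GGGCGG. HBEGF has 5 matches of GGGCGG, 2 of which overlap in a shared base, and no TATAAA, and TGFA has 3 of GGGCGG and no TATAAA. The GC content is 76.4% in HBEGF, 75.6% in TGFA and 58.0% in EREG. TGFA has a second annotated start region, at chr2:70553447-70553696, with a GC content of 64.0% and none of the motifs searched. TATAAA is found in 10.7% and GGGCGG in 42.6% of all 35116 RefSeq start regions of this length. TGANTCA, the AP-1 motif, which is held by 6.57% of them, is in none of these 3 regions. All 6 members matched a start region, with 8 regions in all since EGFR and TGFA have 2 each, and TGANTCA was found in 1 of the 8, the second EGFR region, which is annotated downstream of the first and also has TATAAA.

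**Figure D1:**
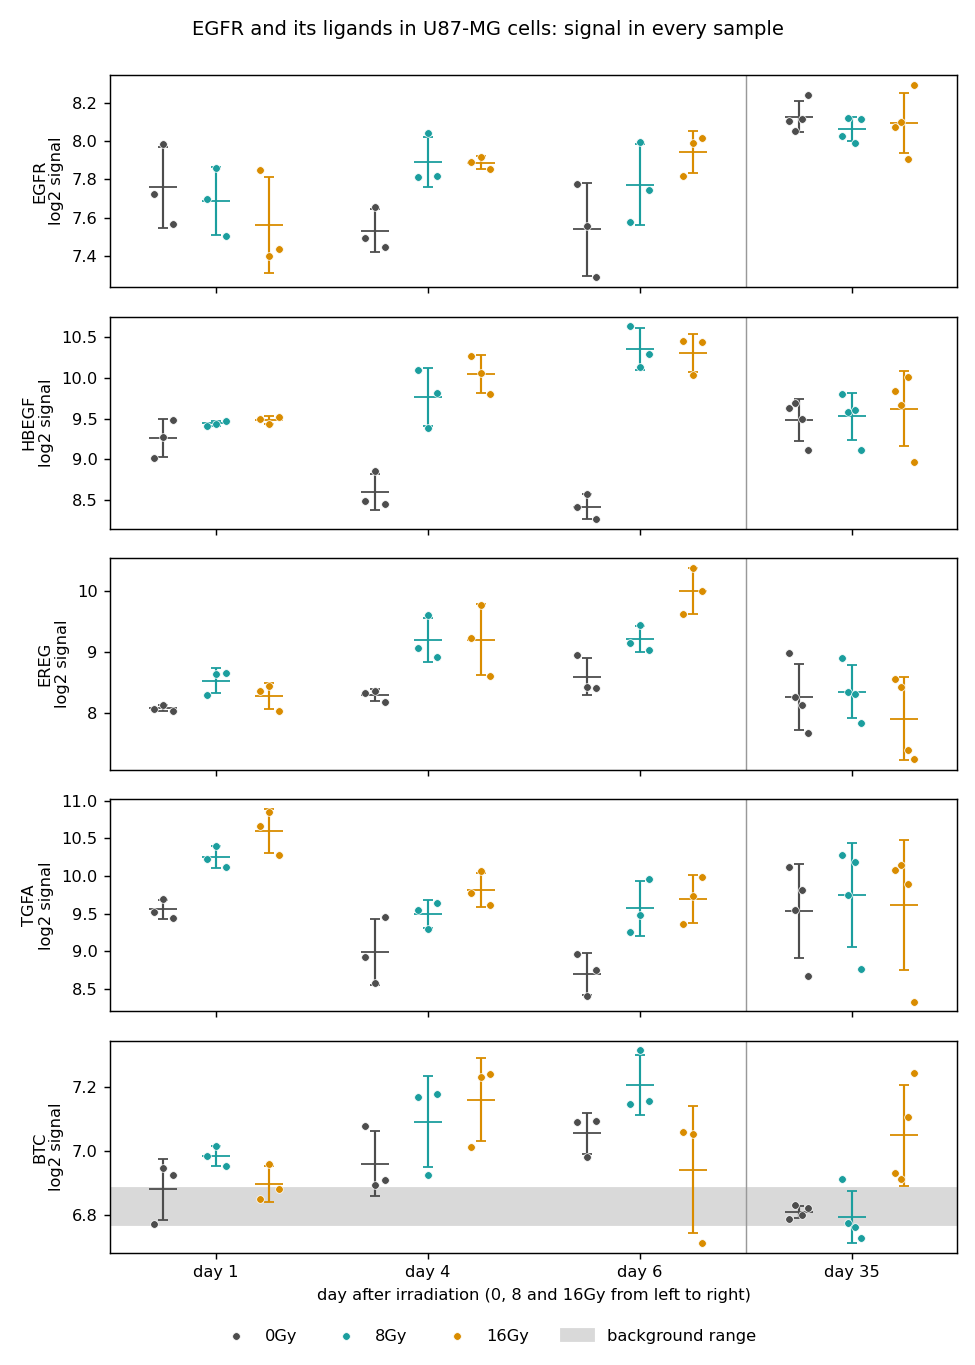
Log2 signal of the 5 members with a probe (one panel each) in every sample, by day and dose. Points are samples, bars are means with SD (n = 3 on days 1, 4 and 6, n = 4 on day 35); the vertical line parts the days 1 to 6 from day 35, which were normalized apart, and the grey band in the BTC panel is the range of background. The 8Gy and 16Gy points of HBEGF sit above all 0Gy points on days 4 and 6, and BTC lies in or close to the band, with no sample above 7.32.

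HBEGF, the heparin-binding ligand, showed the largest differences of the 5 members, on days 4 and 6. On day 1 its log2 signals were 9.02, 9.28 and 9.49 at 0Gy, 9.41, 9.44 and 9.48 at 8Gy, and 9.50, 9.43 and 9.52 at 16Gy. The doses overlapped on that day, with differences from 0Gy of 0.18 ± 0.17 at 8Gy (SE, adjusted p = 0.81, limma) and 0.22 ± 0.17 at 16Gy (adjusted p = 0.57). On day 4 the signals were 8.49, 8.86 and 8.45 at 0Gy, 10.10, 9.39 and 9.82 at 8Gy, and 10.27, 10.07 and 9.81 at 16Gy. Every irradiated sample of day 4 was above every 0Gy sample. The differences were 1.17 ± 0.17 at 8Gy, a change of 2.25-fold (adjusted p = 6.5e-05), and 1.45 ± 0.17 at 16Gy, or 2.73-fold (adjusted p = 5.6e-07).

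On day 6 HBEGF read 8.42, 8.58 and 8.27 at 0Gy, 10.64, 10.14 and 10.30 at 8Gy, and 10.45, 10.04 and 10.44 at 16Gy. The groups again did not overlap, and the mean signal was 10.36 ± 0.26 at 8Gy and 10.31 ± 0.23 at 16Gy, against 8.42 ± 0.15 at 0Gy (SD, n = 3 each). That is 3.82-fold at 8Gy (difference 1.94 ± 0.17, adjusted p = 5.8e-09) and 3.71-fold at 16Gy (1.89 ± 0.17, adjusted p = 1.7e-09). The doses could not be separated in this gene: 16Gy minus 8Gy was 0.28 on day 4 (95% interval -0.07 to 0.63) and -0.05 on day 6 (-0.39 to 0.30).

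HBEGF also changed with time in unirradiated cells. At 0Gy its signal was lower on day 4 than on day 1, by a log2 difference of -0.66 ± 0.17 (adjusted p = 0.0082, limma), and this made HBEGF the 1 member of 5 called in that comparison, in which 6.36% of all genes were called. Without the 0Gy sample of replicate 3 on day 1 or of replicate 1 on day 4, the difference was -0.53 or -0.56 and not called. The 0Gy signal on day 6 differed from that on day 4 by -0.18 ± 0.17 (adjusted p = 1), and 0% of all genes were called there, with 462 at an unadjusted p under 0.05. The increase of the radiation effect between days 1 and 4 was tested as an interaction: it was 1.23 ± 0.24 at 16Gy (adjusted p = 0.0036; 1 of 5 members called against 4.56% of all genes) and 0.99 ± 0.24 at 8Gy (adjusted p = 0.081; 1 of 5 against 0.385%). The interaction at 16Gy stayed called with each sample left out in turn, while that at 8Gy was called in 4 of the 12 fits that left out 1 of its samples. Between days 4 and 6 no member was called in the change of the effect by limma: at 8Gy, where 0% of all genes were called and 395 had an unadjusted p under 0.05, 1 of the 5 members also did, HBEGF with 0.76 ± 0.24, and at 16Gy, where 0.0613% were called, also 1 of 5, BTC with -0.32 ± 0.14.

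EREG, epiregulin, a ligand that binds both EGFR and ERBB4, was called on days 4 and 6. On day 1 it read 8.07, 8.14 and 8.04 at 0Gy, 8.30, 8.65 and 8.66 at 8Gy, and 8.37, 8.45 and 8.04 at 16Gy. Its 8Gy samples were all above the 0Gy samples on that day, but the difference of 0.45 ± 0.19 was not called (adjusted p = 0.42, limma), and at 16Gy the groups overlapped (0.20 ± 0.19, adjusted p = 0.65). On day 4 the signals were 8.33, 8.37 and 8.19 at 0Gy, 9.07, 9.61 and 8.93 at 8Gy, and 9.22, 9.77 and 8.61 at 16Gy. No irradiated sample of day 4 overlapped the 0Gy samples, and the doses gave 0.91 ± 0.19 each, with adjusted p = 0.0044 at 8Gy and adjusted p = 0.0016 at 16Gy. The 16Gy samples of day 4 were spread over more than a 2-fold range, with an SD of 0.58.

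Day 6 was the day on which EREG was called between the doses. The signals were 8.95, 8.44 and 8.42 at 0Gy, 9.15, 9.44 and 9.04 at 8Gy, and 9.63, 10.38 and 10.00 at 16Gy. The lowest 16Gy sample was above the highest 8Gy sample, and the lowest 8Gy sample was above the highest 0Gy sample. The difference from 0Gy was 1.40 ± 0.19 at 16Gy, a change of 2.64-fold (adjusted p = 2.3e-06, limma), and 0.61 ± 0.19 at 8Gy, or 1.53-fold (adjusted p = 0.047). 16Gy exceeded 8Gy by 0.79 ± 0.19 (adjusted p = 0.051), in 3 of 3 replicate numbers, and EREG was the 1 of 5 members called between the doses, against 0.394% of all genes. This call between doses was kept in 1 of the 6 fits that left out a sample, with differences of 0.69 to 0.98 and adjusted p of 0.017 to 0.44, and was lost without the replicate term (adjusted p = 0.12) or the variance trend (adjusted p = 0.10). The 8Gy call of EREG on day 6 was also lost when a sample of replicate 2 or 3 was left out, with differences of 0.40 and 0.60 for those of 0Gy and of 0.59 and 0.62 for those of 8Gy.

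Between 16Gy and 8Gy no other day gave a call in a member by limma. On day 1, where 0% of all genes were called and 403 had an unadjusted p under 0.05, and on day 4, where 0.0175% were, 0 of 5 members had an unadjusted p under 0.05. On day 6 that number was 2 of 5, EREG and BTC, and 16Gy minus 8Gy was -0.27 ± 0.10 for BTC (adjusted p = 0.26).

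TGFA, transforming growth factor alpha, was the earliest member to be called. On day 1 its signals were 9.52, 9.70 and 9.45 at 0Gy, 10.23, 10.40 and 10.12 at 8Gy, and 10.66, 10.85 and 10.27 at 16Gy. All irradiated samples were above all 0Gy samples on that day. The 16Gy mean was 10.59 ± 0.29, against 9.56 ± 0.13 at 0Gy (SD, n = 3 each), which is 2.05-fold (difference 1.04 ± 0.20, adjusted p = 0.0089, limma). At 8Gy the difference of 0.70 ± 0.20, or 1.62-fold, passed the fold threshold but not the adjusted p (0.21). When day 1 was fitted alone it was called (adjusted p = 0.089).

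On day 4 TGFA read 8.93, 8.58 and 9.45 at 0Gy, 9.54, 9.29 and 9.64 at 8Gy, and 9.78, 10.06 and 9.61 at 16Gy. The SD of the 0Gy samples was 0.44, and 1 of them, replicate 3, lay within the 8Gy range. The difference was 0.83 ± 0.20 at 16Gy (1.77-fold, adjusted p = 0.0079, limma) and 0.50 ± 0.20 at 8Gy (adjusted p = 0.29). On day 6 the signals were 8.96, 8.41 and 8.75 at 0Gy, 9.26, 9.48 and 9.96 at 8Gy, and 9.36, 9.73 and 9.99 at 16Gy. No sample overlapped between irradiated and 0Gy cells, and both doses were called, with 0.99 ± 0.20 at 16Gy (1.98-fold, adjusted p = 0.00082) and 0.86 ± 0.20 at 8Gy (1.82-fold, adjusted p = 0.0077).

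At 0Gy, TGFA on day 4 minus day 1 was -0.57 ± 0.20, just under the fold threshold (adjusted p = 0.062, limma). Its radiation effect did not differ detectably between these days: day 4 minus day 1 was -0.21 at 16Gy (95% interval -0.80 to 0.38) and -0.19 at 8Gy (-0.78 to 0.40).

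**Figure D2:**
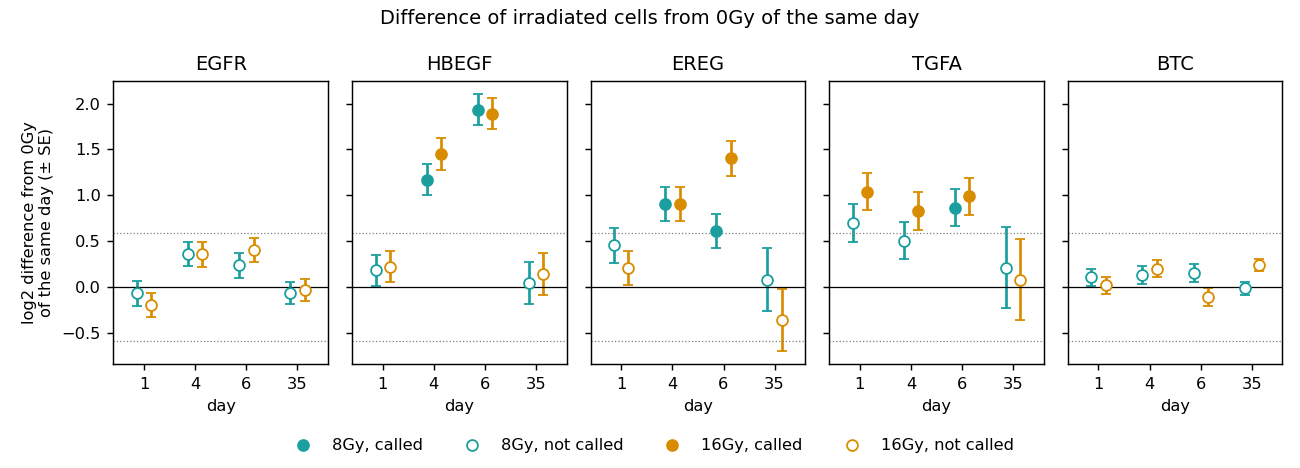
Log2 difference of 8Gy and of 16Gy cells from 0Gy cells of the same day (y axis, ± SE of the limma fit) on days 1, 4, 6 and 35 (x axis), one panel a member. Filled points were called, open points were not, and dotted lines mark a fold change of 1.5 in either direction. TGFA has a filled point from day 1 on, HBEGF and EREG from day 4 on, and no point is filled on day 35.

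HBEGF lies at chr5:140332843-140346603, TGFA at chr2:70447284-70553826 and EGFR at chr7:55019017-55211628 in GRCh38.p14. EREG (chr4:74365145-74388749) and BTC (chr4:74744759-74794523) are neighbours on chromosome 4 with AREG (chr4:74445136-74455005) between them. Of this pair EREG was called on days 4 and 6 and BTC was not, but BTC lay so close to background that a change in it was hardly measurable.

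EGFR itself, the receptor, differed in signal by less than the fold threshold on every day. Its log2 signals on day 1 were 7.72, 7.98 and 7.57 at 0Gy, 7.70, 7.86 and 7.51 at 8Gy, and 7.85, 7.40 and 7.43 at 16Gy. These overlap, with differences of -0.07 ± 0.13 at 8Gy (adjusted p = 0.92, limma) and -0.20 ± 0.13 at 16Gy (adjusted p = 0.49). On day 4 they were 7.49, 7.66 and 7.45 at 0Gy, 7.81, 8.04 and 7.82 at 8Gy, and 7.89, 7.92 and 7.85 at 16Gy. All irradiated samples of day 4 were above the 0Gy samples, with differences of 0.36 ± 0.13 at 8Gy (adjusted p = 0.22, limma) and 0.35 ± 0.13 at 16Gy (adjusted p = 0.089). The change of this difference between days 1 and 4 was 0.55 ± 0.19 at 16Gy (adjusted p = 0.10) and 0.43 ± 0.19 at 8Gy (adjusted p = 0.50), neither of them called.

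On day 6 EGFR read 7.78, 7.55 and 7.29 at 0Gy, 7.58, 8.00 and 7.74 at 8Gy, and 7.82, 7.99 and 8.02 at 16Gy. The 16Gy samples were above the 0Gy samples, and the 8Gy samples were not. The difference at 16Gy was 0.40 ± 0.13, or 1.32-fold, with an adjusted p of 0.033 that passed its threshold without the fold (limma), and at 8Gy it was 0.23 ± 0.13 (adjusted p = 0.35). The upper end of the 95% interval at 16Gy was 0.67, so a change slightly over 1.5-fold was within the error.

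EGFR was dim, so a fold change of its RNA is understated by the signal, and its 4 probes did not all measure it. The brightest, ILMN_1798975, ranged from 7.29 to 8.29, and a second, ILMN_1696521, from 7.07 to 7.80, both above background in 39 of 39 samples, while ILMN_1728858 and ILMN_1755535 were above background in 0. With the second probe the 16Gy difference on day 6 was 0.06 ± 0.13 (adjusted p = 0.78, limma), in place of 0.40 ± 0.13, and that at 8Gy was 0.29 ± 0.13 (adjusted p = 0.20). No dose or day was called with either probe.

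Both TGFA probes were bright, and they differed in which calls they gave. The second, ILMN_2083946, had 10.53, 10.54 and 10.08 at 16Gy on day 1, against 9.14, 9.17 and 9.06 at 0Gy, a difference of 1.26 ± 0.24 (adjusted p = 0.0077, limma). It was called at 16Gy on day 6 (0.66 ± 0.24, adjusted p = 0.053) but not on day 4 (0.56 ± 0.24, adjusted p = 0.14), nor at 8Gy on day 6 (0.62 ± 0.24, adjusted p = 0.13). The 16Gy call on days 1 and 6 was thus made with both probes, and the other 2 rest on the brightest, ILMN_1805175.

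**Figure D3:**
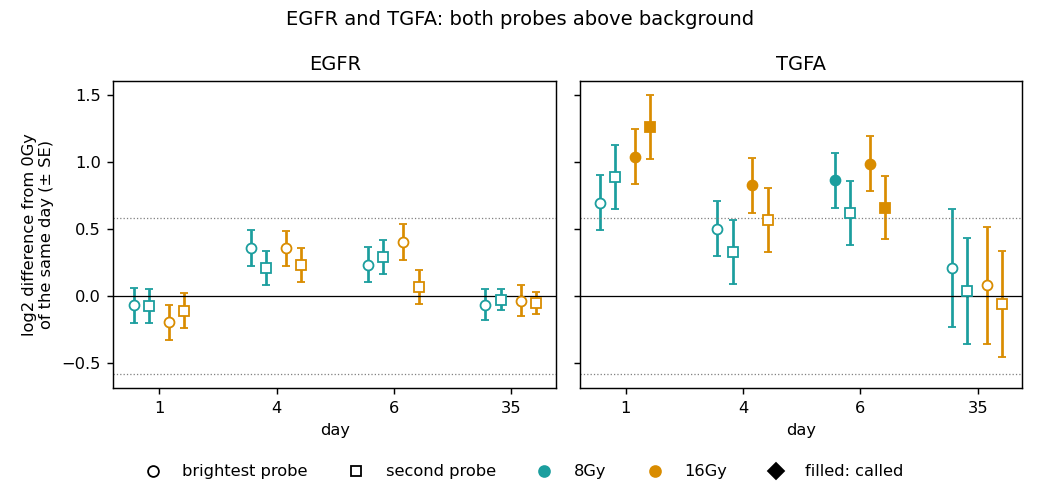
Log2 difference from 0Gy of the same day (y axis, ± SE of the limma fit) on days 1, 4, 6 and 35 (x axis), for the brightest probe (circles) and the second probe above background (squares) of EGFR and of TGFA. Colours give the dose and filled symbols were called. The TGFA probes are both called at 16Gy on days 1 and 6, and no EGFR point is filled.

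BTC, betacellulin, was close to background and was above it in 30 of 39 samples. Its signals lay between 6.71 and 7.32, and its means on days 1 to 6 from 6.88 at 0Gy on day 1 to 7.21 at 8Gy on day 6. The largest difference from 0Gy on days 1 to 6 was 0.20 ± 0.10, at 16Gy on day 4 (adjusted p = 0.21, limma). On day 6 it read 7.09, 6.98 and 7.09 at 0Gy, 7.15, 7.32 and 7.16 at 8Gy, and 7.06, 7.05 and 6.71 at 16Gy, with 1 of the 16Gy samples apart from the rest. So near to background a fold change is understated, and a change of the RNA was hardly measurable with this probe.

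Ordered by mean over the 9 groups of days 1 to 6, the ligands had different orders. HBEGF was highest at 8Gy and 16Gy on day 6, then at 16Gy and 8Gy on day 4, and lowest at 0Gy on days 4 and 6, and neighbours in this order overlapped in range except 0Gy on day 1 and 0Gy on day 4. EREG had its highest group at 16Gy on day 6, which was separate from the next, 8Gy on day 6, and its lowest at 0Gy on day 1. TGFA was highest at 16Gy and 8Gy on day 1, which did not overlap with the third, 16Gy on day 4, and lowest at 0Gy on day 6. For EGFR and BTC every group overlapped with the next in order, and the highest mean of EGFR was that of 16Gy on day 6, at 7.94 ± 0.11 (SD, n = 3).

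On day 35 none of the 5 members was called between the doses, and HBEGF, EREG and TGFA were lowest in the same replicate number at each dose. By limma 0 of 5 members were called at 8Gy (0% of all genes, with 71 genes and 0 members at an unadjusted p under 0.05), 0 of 5 at 16Gy (0.00876% of all genes, with 451 genes and 1 member at that p) and 0 of 5 between 16Gy and 8Gy (0% of all genes, with 526 genes and 1 member at that p), BTC being that member in both. The analysis of variance with Benjamini-Hochberg adjustment also called 0 of 5 members against 0Gy, with 0.0299% of all genes called at 8Gy and 0.339% at 16Gy, which is 6 and 68 of 20041 genes.

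TGFA on day 35 read 10.12, 9.54, 9.81 and 8.68 at 0Gy, 10.28, 9.75, 10.19 and 8.77 at 8Gy, and 10.08, 10.15, 9.89 and 8.33 at 16Gy, in the order of replicates 1 to 4. HBEGF read 9.63, 9.70, 9.50 and 9.11 at 0Gy, 9.81, 9.58, 9.61 and 9.12 at 8Gy, and 9.85, 9.67, 10.01 and 8.97 at 16Gy. EREG read 8.99, 8.27, 8.14 and 7.69 at 0Gy, 8.90, 8.35, 8.32 and 7.83 at 8Gy, and 8.56, 8.43, 7.40 and 7.26 at 16Gy. Replicate 4 was the lowest of its dose in all 9 of these groups, sham cells included, and the deviations of the replicate 4 samples from their group means correlated across genes at a mean of 0.708.

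The 95% intervals of the day 35 differences in the fit to dose alone were wide, at 16Gy -0.87 to 1.03 for TGFA, -0.36 to 0.63 for HBEGF and -1.10 to 0.38 for EREG, and at 8Gy -0.74 to 1.16, -0.45 to 0.54 and -0.66 to 0.82. Same-numbered samples deviated together on this day, and the intervals were narrower once replicate number was blocked, at 16Gy -0.24 to 0.40 for TGFA, -0.13 to 0.40 for HBEGF and -0.68 to -0.04 for EREG, and at 8Gy -0.11 to 0.53, -0.22 to 0.31 and -0.24 to 0.40. No member was called with the block either, with adjusted p of 0.35 to 0.87 at 16Gy and of 1 at 8Gy (limma). TGFA at 8Gy was above its same-numbered 0Gy sample in 4 of 4 pairs, by a mean of 0.21 ± 0.15 (SE of the blocked fit; two-sided exact test within pairs, p = 0.125, the smallest that 4 pairs allow), and EREG at 16Gy was below it in 3 of 4 (p = 0.25 in the same exact test). EGFR was even across the doses: its means were 8.13 ± 0.08 at 0Gy, 8.06 ± 0.06 at 8Gy and 8.09 ± 0.16 at 16Gy (SD, n = 4 each), and the intervals were -0.29 to 0.22 at 16Gy and -0.32 to 0.19 at 8Gy. For this gene a 1.5-fold change of signal lay outside the intervals. EGFR was dim, and background within its signal understates a fold change of the RNA, so the intervals do not bound that.

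BTC was the member with separate groups on day 35. Its signals were 6.93, 6.91, 7.11 and 7.24 at 16Gy, against 6.79, 6.83, 6.80 and 6.82 at 0Gy, and the 8Gy samples read 6.91, 6.77, 6.76 and 6.73. All 16Gy samples were above background and all 0Gy samples were below it, so the difference of 0.24 has only background on its lower side. The two-sided exact permutation test gave p = 0.0286 for 16Gy against 0Gy, the smallest that 4 against 4 samples allow, in 1 of 15 such tests of the members on day 35. This test leaves the replicate numbers out, and the two-sided exact test within the 4 pairs, in all of which 16Gy was above 0Gy, gave p = 0.125. After adjustment over all genes it was not called (adjusted p = 0.86, and 0.35 with the block, limma).

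**Figure D4:**
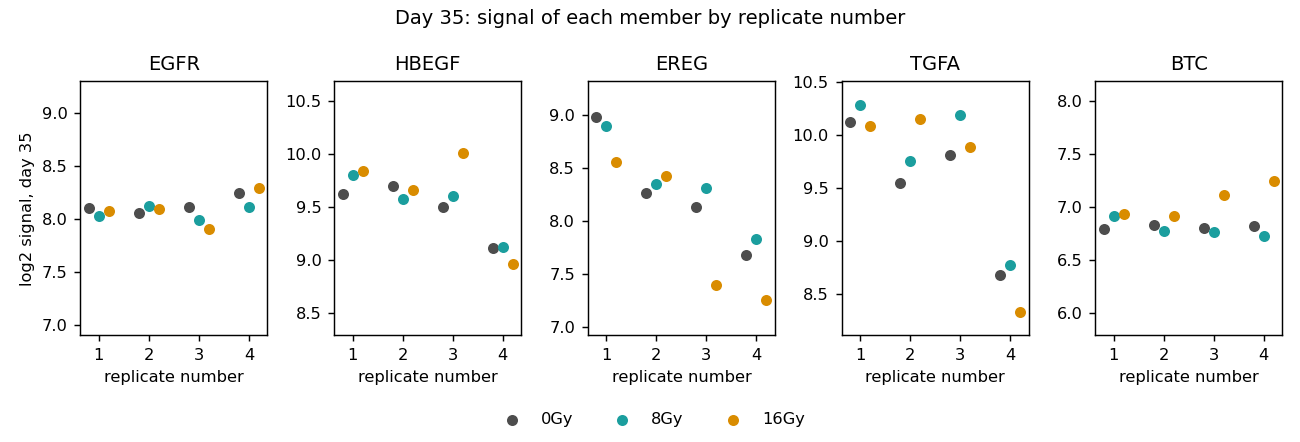
Log2 signal on day 35 (y axis, the same span in each panel) by replicate number (x axis) and dose (colours), one panel a member; points are samples and the numbers carry no order. TGFA, HBEGF and EREG are lowest in replicate 4 at each dose, EGFR is level, and the 16Gy points of BTC lie above its 0Gy points.

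The rest of the pathway was read from 5 lists of genes, chosen with earlier results of these data known. Their shares of called genes are therefore a description and not an independent test. Among ERBB receptors and other EGF-family ligands, 4 of 9 genes were tested and 1 was called higher at 16Gy on day 6, where 7.78% of all genes were called, NRG1 (neuregulin 1, a ligand of ERBB3 and ERBB4), with a mean of 10.04 ± 0.05 at 16Gy against 8.19 ± 0.40 at 0Gy (SD, n = 3 each; difference 1.85 ± 0.22, adjusted p = 3.4e-07, limma). NRG1 was also higher at 16Gy on day 4 (1.10 ± 0.22) and at 8Gy on day 6 (adjusted p = 2.8e-05), and on day 1 it was not called. ERBB2, the partner kinase of EGFR, differed by -0.05 at 16Gy on day 6 (adjusted p = 0.80).

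Of 9 genes of ligand shedding, all tested, 1 was called higher and 1 lower at 16Gy on day 6, where 7.78% of all genes were called. The median of the list was -0.09. TIMP3, an inhibitor of ADAM17, was higher by 1.31 ± 0.26 (adjusted p = 0.00052, limma), and ADAM8, a metalloprotease, differed by -0.80 ± 0.15 (adjusted p = 0.00023), with a mean of 6.96 at 16Gy against 7.76 at 0Gy. ADAM17 and ADAM10, the proteases best known for cutting these ligands, were not called, at -0.24 and 0.05. Both calls were also made at 16Gy on day 4, against 4.61% of all genes, and none at 8Gy.

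Of 20 adaptors and signal transducers 13 were tested, and 1 was called at 16Gy on day 6, the kinase SRC, higher by 0.77 ± 0.15 (adjusted p = 0.00055, limma). A call in 1 of 13 is near the 7.78% of all genes called in that comparison. As the mean of its probes above background, SRC gave 0.35 and was not called. GRB2, SHC1, SOS1, MAP2K1, MAPK3 and STAT3 were among the 12 not called, whose differences lay under the fold threshold.

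Of 22 genes of receptor endocytosis and feedback 21 were tested, and 6 were called higher and 0 lower at 16Gy on day 6, against 7.78% of all genes called in that comparison. DUSP5 and DUSP6, phosphatases that act on ERK, were higher by 1.35 ± 0.16 (adjusted p = 4.5e-07, limma) and 1.09 ± 0.16 (adjusted p = 1.1e-05), and SPRY4 and SPRY2, inhibitors of receptor signalling to ERK, by 1.32 ± 0.14 and 0.88 ± 0.15. The remaining calls were SOCS3 and ERRFI1, a direct inhibitor of the EGFR kinase. At 16Gy on day 4, 5 of the 21 were called, all higher (4.61% of all genes), and at 8Gy on day 6 also 5 (3.2% of all genes). DUSP6 alone was called at 8Gy on day 4 (0.61 ± 0.16, adjusted p = 0.038, limma), where 1.77% of all genes were called. On day 1 it was again the 1 gene called, at 16Gy (0.60 ± 0.16, adjusted p = 0.051), against 1.21% of all genes. The list's median difference was 0.26 at 16Gy on day 6, and that of all genes -0.03.

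All 15 ERK target genes were tested, and 6 were called higher and 1 lower at 16Gy on day 6, against 7.78% of all genes. LIF, a cytokine of the interleukin 6 family, had the largest difference, with a mean of 10.24 ± 0.56 at 16Gy against 7.38 ± 0.33 at 0Gy (SD, n = 3 each; 2.86 ± 0.21, adjusted p = 4.3e-11, limma). IER3 was higher by 1.79 ± 0.15 and PLAUR, the urokinase receptor, by 1.53 ± 0.15. PHLDA1 averaged 11.97 ± 0.12 at 16Gy and 10.81 ± 0.05 at 0Gy (SD, n = 3 each; adjusted p = 2.7e-08). FOSL1 and SPHK1 were the other 2, and ETV1 was the lower one. EGR1, FOS and MYC did not pass the fold threshold, at 0.54, 0.42 and 0.35. The same 7 genes were called at 8Gy on day 6 (3.2% of all genes), 4 were called on day 4 at each dose (1.77% of all genes at 8Gy and 4.61% at 16Gy), and none on day 1 or day 35. The median of the list was 0.52 at 16Gy on day 6, and that of all genes -0.03. SPRY4 and PHLDA1 stayed called as the mean of their probes above background, with differences of 0.68 and 0.75.

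**Figure D5:**
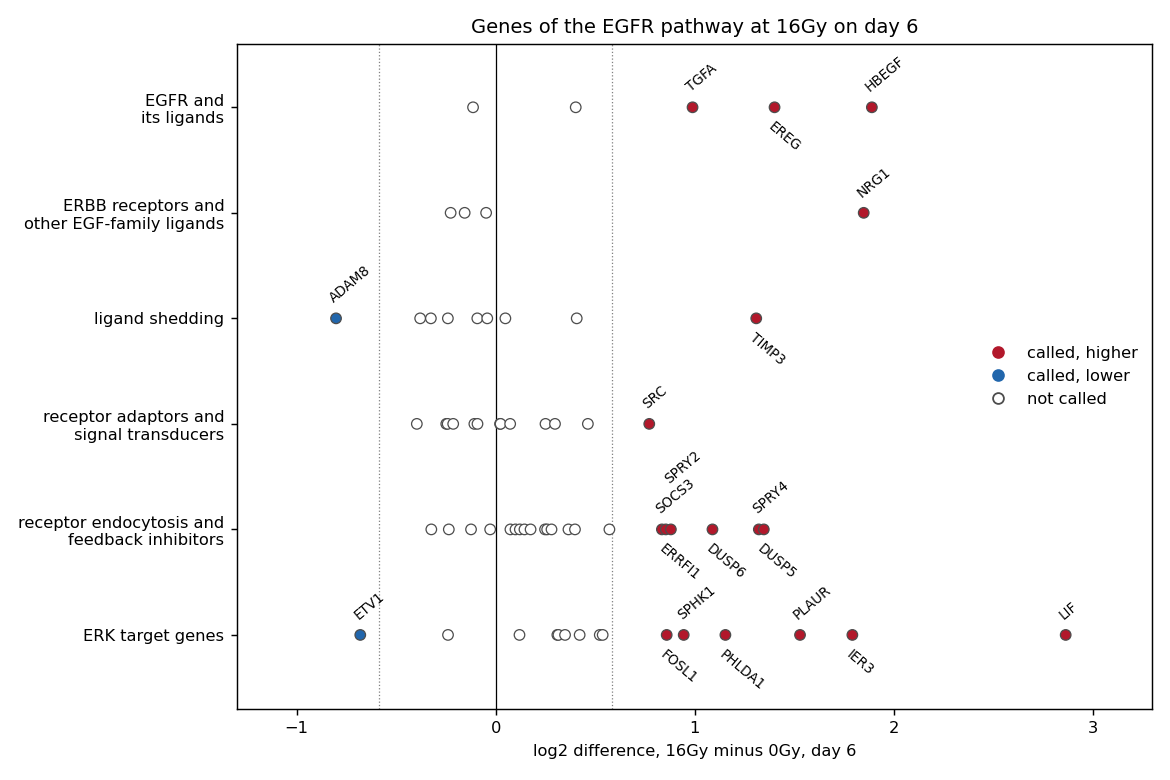
Log2 difference, 16Gy minus 0Gy, on day 6 (x axis) for each gene tested among EGFR and its ligands and 5 lists of pathway genes (rows). Red points were called higher, blue points lower, open points were not called, and dotted lines mark a fold change of 1.5. LIF at 2.86 is the point farthest to the right, and ADAM8 and ETV1 are the genes called lower.

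The genes whose signal followed a member most closely over the 27 samples of days 1 to 6 were listed for each member. They are the 3 tested genes with the highest Pearson correlation, a description over samples that share their doses, days and normalization. For HBEGF they were IL11 (r = 0.934), DUSP1 (0.905) and LCP1 (0.897). For EREG they were ATF3 (0.932), a stress-induced transcription factor, C3 (0.93) and MAP1LC3B (0.922), and for TGFA ANGPTL4 (0.915), EGLN1 (0.874) and SERTAD1 (0.867). No gene was shared between these sets. EGFR came closest to CCN1, followed by EPOP (0.825) and NAV2 (0.814), and BTC to AHR (0.777), NFKBIA (0.769) and SUSD2 (0.749).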

How the data were processed

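Gene expression was measured in 39 samples of U87-MG cells on Illumina HumanHT-12 v4 bead arrays, and the number of samples per group limits the precision. The authors deposited log2 values: per the labels and the study's methods they exported the signals with the GenomeStudio Gene Expression module 1.6.0, quantile normalized the 27 samples of days 1, 4 and 6 and the 12 samples of day 35 apart and took log2, adjusted the 27 for batches they do not name (ComBat), and averaged 2 technical runs for replicate 1 of days 1, 4 and 6. Adjusting for batches before a test can make the spread between replicates too small, and levels of day 35 were not set against the other days. Another 96 columns, of non-normalized signals and detection p-values of 48 arrays, could not be tied to samples and were not used here.

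The lowest value was 5.924, so a floor at a signal of 16 changed nothing. Of 47300 probes, 30100 name 1 gene through the platform annotation, 8 several and 17192 none. Each of the 20041 genes was represented by its probe with the highest mean, and 11421 genes were tested, those brighter in every sample of at least 1 group than all but a share under 0.05 of the probes of olfactory receptor genes. limma 3.58.1 (lmFit, eBayes with a variance trend, R 4.3.3) was fitted to dose and day with the replicate number as a term on days 1 to 6, and to dose alone on day 35. The thresholds on adjusted p and fold are those of the study, but its methods used an analysis of variance with Bonferroni-Holm, and the Benjamini-Hochberg adjustment used here is less strict. Per the labels each replicate had its own sham control. Same-numbered samples deviated together on day 35 (every correlation was at least 0.115) and on day 6 (at least 0.118). On days 1 and 4 the lowest correlations were -0.171 and -0.578. The replicate term of the main fit was shared by days 1, 4 and 6, so it did not pair samples within a day. Pairs were used on day 6 to count replicate numbers, and on day 35 in the blocked fit and the exact test within pairs. The methods call the replicates of days 1 to 6 independent and do not say whether cultures, days or passages differed, so p-values measure the spread between these samples.

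The members and the gene lists were chosen with earlier results of these data known. The genes named are the members, up to 4 called genes of each list with the largest difference at 16Gy on day 6, and the 3 closest genes by correlation; other list genes were named after their values were seen. Start regions are from the RefSeq promoter table, cut to the bases before the start. Alternatives are the replicate term, each day fitted alone, the mean of probes, the filter, the trend, a joint normalization, leaving out samples, the analysis of variance, and, added after seeing the data, second probes, day 35 without replicate 4 and the exact test within day 35 pairs.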

Additional observations from a re-analysis of the deposited data

Results flagged for a closer look

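The TGFA sample of 16Gy replicate 4 on day 35 lay far from the other 3 of its group: its log2 signal was 8.33 and its gap to the nearest sample was 0.856 of the range of the group, over Dixon's limit for 4 samples. It was 1 of 15 groups of 4 tested, and chance marks about 1 group in 20. The second TGFA probe also had its lowest value of the group in that sample, at 8.94.

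The effect of radiation on HBEGF differed between days 4 and 1, by 1.23 at 16Gy (adjusted p = 0.0036, limma) and by 0.99 at 8Gy (adjusted p = 0.081). In the same span the mean HBEGF signal at 0Gy went from 9.26 on day 1 to 8.60 on day 4, a log2 difference of -0.66. At 8Gy the mean went from 9.44 to 9.77, and at 16Gy from 9.48 to 10.05. The change of the effect holds both the fall at 0Gy and the rise in irradiated cells. The fall at 0Gy was larger than the rise at either dose, and the rise alone was not tested.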

How the results depend on the processing

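The HBEGF calls on days 4 and 6 at both doses were made in all 14 alternatives of each that used limma, as were the EREG calls on day 4 and at 16Gy on day 6, and TGFA at 16Gy was called in 15 of 15 on days 1 and 6 and in 14 of 15 on day 4. These counts include a fit without the floor, which repeats the main fit since no value lay under the floor. The mean of probes left the values of HBEGF and EREG as they were, since each has 1 probe. The replicate block on day 35 called 0 members, as without it. On days 1 to 6, where the numbers were a term of the fit, mean correlations of same-numbered samples were 0.0894 to 0.289 on day 1, -0.134 to 0.122 on day 4 and 0.194 to 0.389 on day 6. Without the block, the count between 16Gy and 8Gy on day 6 was 0, as it was without the variance trend, and the count for the change of the 8Gy effect between days 1 and 4 was 0 in both and with no filter. The count at 8Gy on day 1 was 1 with each day fitted alone and with the analysis of variance under Benjamini-Hochberg. Under Bonferroni-Holm, the stricter correction, that analysis gave 0 at 16Gy on day 1 (0.319% of all genes) and 1 (HBEGF) at each dose on days 4 and 6 (0.719% to 1.64% of all genes), so that EREG and TGFA lost every call.

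With 1 sample left out, the count was 0 to 1 for 16Gy against 8Gy on day 6 and for the change of the 8Gy effect between days 1 and 4, 1 to 2 for that of the 16Gy effect, 0 to 2 for 0Gy on day 4 against day 1, and 2 to 3 at 8Gy on day 6. Values that were not called changed sign. These ranged from -0.0444 to 0.0485 for BTC at 16Gy on day 1, -0.182 to 0.00717 for BTC at 16Gy on day 6 and -0.123 to 0.00502 for EGFR at 8Gy on day 1. On day 35 they ranged at 8Gy from -0.116 to 0.319 for EREG, -0.0801 to 0.18 for HBEGF, -0.0757 to 0.538 for TGFA and -0.0554 to 0.00587 for BTC, and at 16Gy from -0.101 to 0.0274 for EGFR and -0.209 to 0.506 for TGFA. Without replicate 4 at every dose on day 35, BTC at 8Gy was 0.00955, and with the second probe TGFA at 16Gy was -0.063. BTC lay too close to background to be measured well.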
